A study of Mus musculus with 7 samples.

Results

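The 9 genes described here encode DNA-binding proteins that build or maintain the retinal pigment epithelium (RPE), the pigmented layer behind the photoreceptors: Mitf, Tfec, Otx2, Lhx2, Pax6, Sox9, Tbx3, Nr2f2 and Myrf. They were taken by symbol, 1 probe set each, from 19938 genes measured, and all 9 had a probe set annotated to them alone. RNA came from 7 samples of mouse RPE on the C57Bl/6J background, each on 1 whole-transcript array, 3 from Mfrp rd6 mutants and 4 from wild type (WT). Mice with rd6, an inherited recessive allele of the frizzled-related membrane protein gene Mfrp carried in the whole animal, lose their photoreceptors with age. RPE was shaken off the eyecups and pelleted, which takes along other cells that come loose. By the age field the 3 Mfrp rd6 samples were 12 weeks old and the 4 WT samples 8, and genotype and age then cannot be told apart. By the growth protocol, Mfrp rd6 replicate 1 alone was 12 weeks old and the other 6 were 8. The labels do not say how many animals made a sample, nor whether samples are separate animals. The p-values therefore cover the spread among these arrays alone, and that spread may be technical. Mfrp itself lies only on a probe set shared with C1qtnf5, which read 11.20, 11.23 and 11.09 in Mfrp rd6, against 11.36, 11.22, 11.49 and 11.26 in WT, and it cannot check the labels by itself.

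RPE fate is set in the optic cup by a small network. Mitf, a basic helix-loop-helix leucine zipper protein, binds E-boxes in pigment gene promoters and works with the homeodomain protein Otx2, while Lhx2 and Pax6 act in eye field and optic cup before and beside them. In the mature RPE, Sox9 is known to act with Otx2, Mitf and Lhx2 on visual cycle genes and on Best1. Several of these proteins are also made by other cells of the eye: Otx2 by photoreceptors and bipolar cells, Pax6 by amacrine and ganglion cells and by the surface epithelium and lens, Lhx2 and Sox9 by Muller glia, Mitf by melanocytes, and Tfec by macrophages.

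The defining RPE marker Rpe65 was bright in all arrays, at 12.48 to 12.80 in Mfrp rd6 and 12.81 to 12.92 in WT. WT replicate 3 stood apart by high rod and muscle markers and Mfrp rd6 replicate 2 by a high mean of lens markers. Values without both arrays are given further on.

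The comparison asked whether transcripts of these factors differ between Mfrp rd6 and WT RPE. None of the 9 passed the test, at an adjusted p under 0.05 over all genes (limma, 0 of 9, where 429 of 19938 genes or 2.15% passed). A p that misses the threshold does not show equal levels, and the 95% intervals give the differences these arrays allow. At an unadjusted p under 0.05 there were 3 of 9, against 15.4% of all genes. These 3 were Lhx2 and Myrf, lower in Mfrp rd6, and Sox9, higher, and in each the arrays of the groups did not overlap, as in 15.3% of all genes (9.82% lower and 5.52% higher). Differences for the other 6 lay between -0.09 (Otx2) and 0.02 (Nr2f2) on the log2 scale, and their 95% confidence intervals held 0. The median change over the 9 was -0.04, beside -0.02 over all genes tested. The members' own spread was small, with standard deviations within a group of 0.02 to 0.29 log2 units. In bulk RNA, fewer cells of a type and less RNA per cell cannot be told apart.

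**Figure D1:**
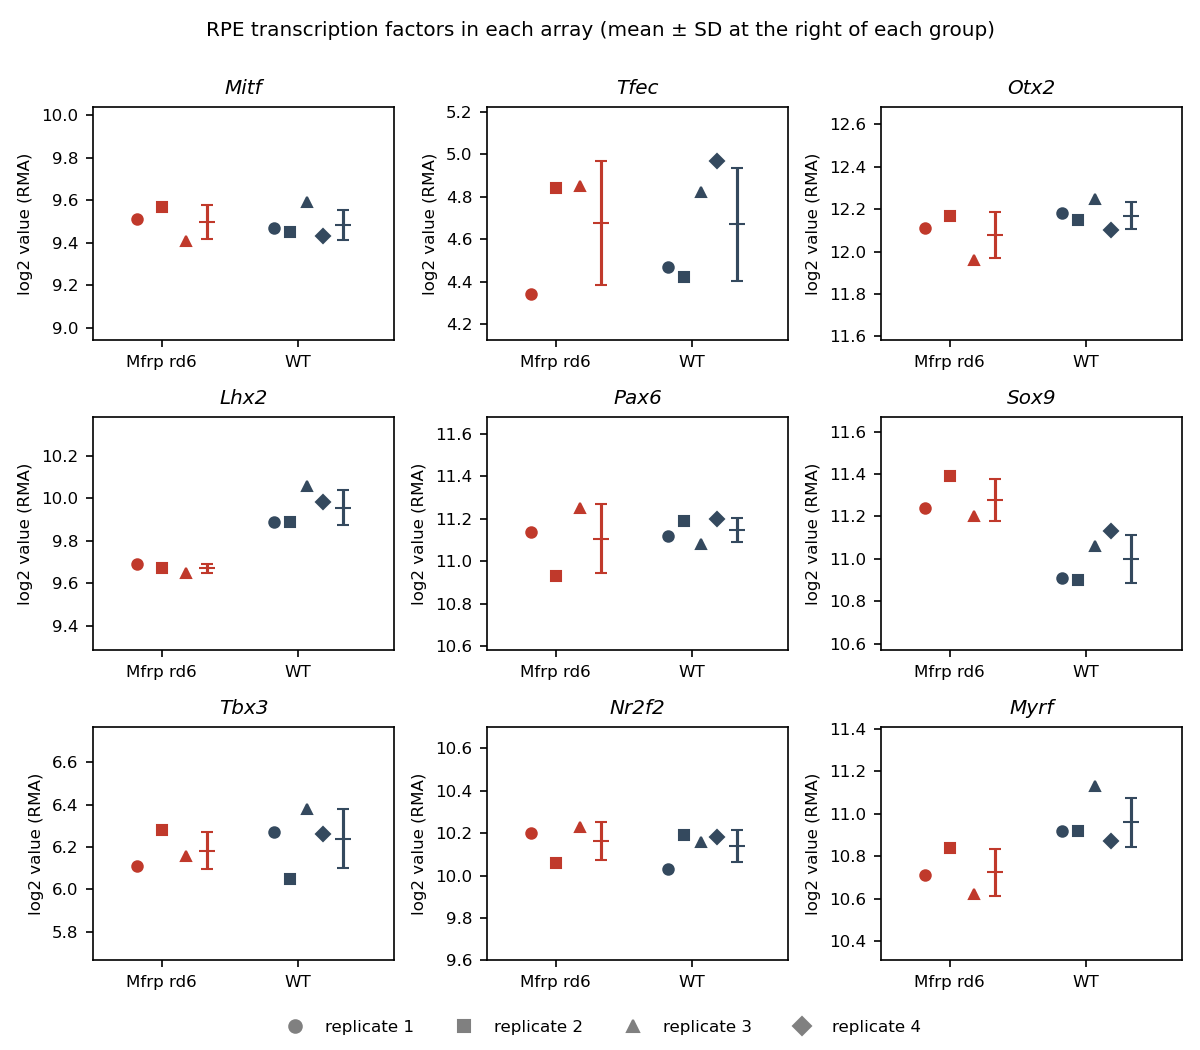
Log2 values (RMA) of the 9 transcription factors in each array, with Mfrp rd6 (n = 3) left of WT (n = 4). Each point is 1 array, its shape gives the replicate, and the bar to the right of each group is the mean ± SD. Lhx2 lies between 9.65 and 9.69 in Mfrp rd6 and between 9.89 and 10.06 in WT, while the arrays overlap for Mitf, Tfec, Otx2, Pax6, Tbx3 and Nr2f2.

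The DNA that these proteins read is shown with promoter windows of 4 genes known as RPE or pigment readouts and of 1 member, because the values further on set the factors beside such genes. The sequences are RefSeq promoters of build GRCm38.p6, from 250 bases before to 50 after a start site, printed 5′ to 3′ along the gene. Capitals mark any of 5 short letter strings, searched on both strands: the E-boxes CATGTG and CACGTG of the Mitf and Tfec family, TAATCC of the Otx2 type, TAATTA of the Lhx2 type and ACAATG of the Sox type. TAATCC and TAATTA share the letters TAAT, and CATGTG and CACGTG differ at a single position. Tyr (tyrosinase) and Tyrp1 stand for pigment synthesis, Rpe65 and Lrat for the visual cycle, and Otx2 is shown by 1 of its 4 windows, that with the most marked letters.
Tyr, chr7:87493463-87493762, minus strand: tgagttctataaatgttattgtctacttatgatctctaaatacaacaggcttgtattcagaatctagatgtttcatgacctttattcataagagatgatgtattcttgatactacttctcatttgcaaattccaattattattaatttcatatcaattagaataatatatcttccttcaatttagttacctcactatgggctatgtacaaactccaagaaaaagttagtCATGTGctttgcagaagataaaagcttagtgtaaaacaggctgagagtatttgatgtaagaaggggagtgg
Tyrp1, chr4:80833963-80834262, plus strand: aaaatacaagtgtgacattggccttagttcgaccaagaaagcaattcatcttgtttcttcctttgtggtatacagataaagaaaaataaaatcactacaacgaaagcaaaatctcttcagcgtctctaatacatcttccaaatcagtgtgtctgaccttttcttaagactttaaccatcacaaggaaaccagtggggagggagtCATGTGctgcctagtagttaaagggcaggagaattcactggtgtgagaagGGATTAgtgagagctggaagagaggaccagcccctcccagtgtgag
Rpe65, chr3:159598931-159599230, plus strand: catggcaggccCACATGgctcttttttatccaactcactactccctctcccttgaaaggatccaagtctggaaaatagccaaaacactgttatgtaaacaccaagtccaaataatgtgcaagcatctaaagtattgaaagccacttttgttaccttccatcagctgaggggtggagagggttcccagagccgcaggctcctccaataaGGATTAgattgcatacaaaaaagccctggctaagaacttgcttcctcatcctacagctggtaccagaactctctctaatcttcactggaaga
Lrat, chr3:82903925-82904224, minus strand: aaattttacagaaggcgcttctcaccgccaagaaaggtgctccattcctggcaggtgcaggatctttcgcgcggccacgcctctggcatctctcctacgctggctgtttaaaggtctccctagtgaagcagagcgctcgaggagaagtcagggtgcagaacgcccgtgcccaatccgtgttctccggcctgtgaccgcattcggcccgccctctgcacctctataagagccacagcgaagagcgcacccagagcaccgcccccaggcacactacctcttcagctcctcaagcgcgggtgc
Otx2, chr14:48665060-48665359, minus strand: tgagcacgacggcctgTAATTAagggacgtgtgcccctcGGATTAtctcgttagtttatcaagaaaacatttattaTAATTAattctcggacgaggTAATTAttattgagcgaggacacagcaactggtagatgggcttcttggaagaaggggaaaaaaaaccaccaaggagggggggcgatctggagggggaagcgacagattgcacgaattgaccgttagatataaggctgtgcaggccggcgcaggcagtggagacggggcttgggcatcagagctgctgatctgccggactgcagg

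The Tyr and Tyrp1 windows hold the E-box CATGTG, and Rpe65 holds it on the other strand as CACATG. Tyrp1 and Rpe65 also hold the Otx2-type letters, read as GGATTA on the other strand. The Otx2 window holds 3 copies of TAATTA and 1 GGATTA. Of the other Otx2 windows, 1 holds TAATTA and CACATG and 2 hold none of the 5 strings, and the Lrat window holds none either. Of 32851 promoter windows, 14.2% hold CATGTG, 7.15% CACGTG, 7.06% TAATCC, 5.29% TAATTA and 12.6% ACAATG. Windows were given for 10 of the 15 pigment genes, 13 windows in all. CATGTG lies in 7 of these 13 windows, from 6 of the 10 genes. CACGTG lies in 3 of the 13, TAATCC in 3, ACAATG in 1 and TAATTA in 0. Among the visual cycle genes and Best1, windows were given for 8 of 11 entries, 12 windows in all. CATGTG lies in 3 of these windows (Rgr, Rlbp1 and Rpe65) and TAATCC in 3 (Best1, Rgr and Rpe65). CACGTG (Rdh11), TAATTA (Rdh11) and ACAATG (Rdh5) lie in 1 window each. For the members, 6 of 9 had windows, 13 in all. Mitf, Nr2f2 and Otx2 hold TAATCC, and Mitf and Otx2 hold TAATTA, each string in 3 of the 13 windows. CATGTG lies in 1 window (Otx2), ACAATG in 1 (Tfec) and CACGTG in 0. A match of letters describes the window and does not show that a factor binds there.

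Mitf and Tfec, the MiT family members on the list, did not differ detectably. Mitf is the central factor of the pigment cell lineages. Its log2 values were 9.51, 9.57 and 9.41 in Mfrp rd6 replicates 1 to 3, against 9.47, 9.45, 9.59 and 9.43 in WT replicates 1 to 4. The groups overlapped over most of their range. The difference was 0.012 (SE 0.07, limma adjusted p = 0.967), and its 95% confidence interval of -0.15 to 0.18 corresponds to 0.90 to 1.13 times the WT level. A second, dim Mitf probe set averaged 3.11 ± 0.18 in Mfrp rd6 (SD, n = 3) and 2.95 ± 0.34 in WT (SD, n = 4). Probe sets of this kind cannot be assigned here to the RPE or melanocyte forms of Mitf, which start from separate promoters.

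Tfec, a relative of Mitf found in RPE and macrophages, read 4.34, 4.84 and 4.85 in Mfrp rd6, against 4.47, 4.42, 4.82 and 4.97 in WT. These are dim values with the widest spread of the list, and the high and low arrays fell in both groups. The difference of 0.0067 had a 95% confidence interval of -0.36 to 0.38, that is 0.78 to 1.30 times WT. Changes of dim probe sets are compressed by RMA, and this interval is the least informative of the 9. The microglia and macrophage markers averaged 8.59 to 9.11 in the Mfrp rd6 arrays and 7.07 to 7.18 in the WT arrays. Of 20 measured markers 15 were called higher (1.34% of all genes) and 0 lower (0.813%). Melanocyte markers, 0 of 7 past the threshold, averaged 9.31 to 9.46 in Mfrp rd6 and 9.38 to 9.44 in WT. The part of either list in the Mitf and Tfec values was not tested. The other family members, Tfeb and Tfe3, which drive lysosomal genes, differed by 0.10 (adjusted p = 0.536) and -0.02 (adjusted p = 0.935).

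Otx2, the homeodomain factor that acts with Mitf on pigment genes, was bright in all arrays. It read 12.11, 12.17 and 11.96 in Mfrp rd6, against 12.18, 12.15, 12.25 and 12.10 in WT. Mfrp rd6 replicate 3 was the lowest of the 7, and the other Mfrp rd6 arrays lay within the WT range. The difference was -0.09 (95% confidence interval -0.26 to 0.08, adjusted p = 0.645). Rod markers, which come with photoreceptors that also make Otx2, averaged 7.34 to 7.67 in Mfrp rd6 and 7.53 to 8.61 in WT, with 0 of 15 measured members past the threshold and all 15 changes negative. WT replicate 3 had both the highest rod mean and the highest Otx2 value. With marker means as covariates the Otx2 difference was -0.05 (rods), -0.27 (skeletal muscle), -0.28 (surface epithelium) and -0.70 (microglia and macrophages), and none of these passed (adjusted p of 0.885, 0.627, 0.802 and 1.00). The skeletal muscle, surface epithelium and microglia means did not overlap between the groups, so fits with them can hardly tell genotype from the markers. The Otx2 paralogue Otx1 differed by 0.17 (adjusted p = 0.514), and Crx, the photoreceptor member of the family, by -0.25 (adjusted p = 0.617).

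Lhx2, a LIM homeodomain factor needed for the optic vesicle and known to act with Sox9 in the RPE, had the smallest p of the 9. Mfrp rd6 arrays read 9.69, 9.67 and 9.65, against 9.89, 9.89, 10.06 and 9.98 in WT. Every Mfrp rd6 array lay below every WT array, and the 3 differed by only 0.04 between highest and lowest. The difference of -0.285 (SE 0.07, 95% confidence interval -0.44 to -0.13) puts Mfrp rd6 at 82.1% of the WT level and did not pass (limma adjusted p = 0.0787). Over the 35 ways to split the arrays, the exact permutation test (two-sided) gave p = 0.0286, the smallest it can give. Lhx2 crossed the threshold in 4 of 21 alternatives. These were moderation that is robust and follows a variance trend (adjusted p = 0.0223), weighting of arrays (0.0342), and fits in which dim genes were left out (0.045 with a mean of at least 6 and 0.0315 above the median of all genes). Over all 21 the adjusted p ranged from 0.0223 to 1.00. In the 7 fits that each left out 1 array it stayed between -0.31 and -0.25 and did not pass (adjusted p of 0.0999 to 0.22). The RPE marker list averaged 11.59 to 11.70 in Mfrp rd6 and 11.71 to 11.84 in WT, without overlap but with 11.70 and 11.71 as the nearest pair. Of its 12 changes 5 were positive and 7 negative, with a median of -0.05. Muller glia markers ranged from 9.06 to 9.22 in Mfrp rd6 and from 9.09 to 9.43 in WT. The part of either list in the Lhx2 difference was not tested. The paralogues Lhx1 (-0.02) and Lhx9 (0.07) did not pass.

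Sox9, an HMG box factor of RPE and Muller glia, differed the other way. It read 11.24, 11.39 and 11.20 in Mfrp rd6, against 10.91, 10.90, 11.06 and 11.13 in WT. All 3 Mfrp rd6 arrays were above the highest WT array, with 11.20 and 11.13 as the nearest pair. The difference was 0.28 (SE 0.08, 95% confidence interval 0.09 to 0.47), or 1.21-fold, and did not pass (limma adjusted p = 0.154). The exact permutation test (two-sided) gave p = 0.0571. Sox9 passed in 1 of 21 alternatives, robust moderation with a variance trend, and the adjusted p over the 21 ranged from 0.0496 to 1.00. Without single arrays the Sox9 difference ranged from 0.22 to 0.32. With marker means as covariates Sox9 was at 0.28 (rods), 0.21 (surface epithelium), 0.10 (skeletal muscle) and -0.43 (microglia and macrophages), and none of these passed. The muscle markers averaged 8.10 to 9.04 in Mfrp rd6 and 6.83 to 8.07 in WT. Its relatives differed by -0.17 (Sox8, adjusted p = 0.339) and -0.09 (Sox10, a factor of melanocytes and Schwann cells, adjusted p = 0.791).

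Myrf, a membrane-bound factor that is cut free to enter the nucleus, is best known from myelinating oligodendrocytes, and human variants of it are linked to small eyes, as are those of MFRP. Myrf values were 10.71, 10.84 and 10.62 in Mfrp rd6, against 10.92, 10.92, 11.13 and 10.87 in WT. The groups did not overlap, though the highest Mfrp rd6 array came close to the lowest WT array. The difference of -0.24 (SE 0.09, 95% confidence interval -0.43 to -0.04), 84.9% of WT, did not pass (limma adjusted p = 0.228), and the exact permutation test (two-sided) gave p = 0.0286. It did not pass in any of the 21 alternatives. With marker means as covariates Myrf was at -0.14 (rods), -0.49 (surface epithelium), -0.52 (skeletal muscle) and -1.03 (microglia and macrophages). Tmem98, a membrane protein that binds Myrf and is likewise tied to eye size, read 11.90 ± 0.06 in Mfrp rd6 (SD, n = 3) and 11.92 ± 0.16 in WT (SD, n = 4), with a difference of -0.01 (adjusted p = 0.968). Of 5 measured eye size genes, Myrf among them, 0 passed (2.15% of all genes), with a median change of -0.06. Myrf alone of these 5 had arrays that did not overlap, beside 15.3% of all genes. Schwann cell and oligodendrocyte markers averaged 7.36 to 7.46 in Mfrp rd6 and 7.37 to 7.50 in WT, and 0 of 9 passed.

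Pax6, the paired box factor of the eye field, read 11.14, 10.93 and 11.25 in Mfrp rd6, against 11.12, 11.19, 11.08 and 11.20 in WT. The Mfrp rd6 arrays held both the lowest and the highest of the 7 values. The difference was -0.04 (95% confidence interval -0.23 to 0.15, adjusted p = 0.88). Mfrp rd6 replicate 2, the lowest, is also the array in which the lens list stood apart, at 8.05 against 6.26 and 6.42 in the other Mfrp rd6 arrays and 6.23 to 6.45 in WT. In this array crystallins such as Cryaa (9.75) and Crygd (9.02) were high. Cryab (10.96), Mip (5.88), Lim2 (6.99), Bfsp1 (6.82) and Bfsp2 (6.34) lay within the range of the other arrays. Without this array the Pax6 difference was 0.05 (adjusted p = 0.894). Surface epithelium, which also makes Pax6, was represented in every array: its marker list averaged 11.60 to 11.70 in Mfrp rd6 and 11.72 to 11.82 in WT, and Krt5, a keratin of basal epithelial cells, read 13.14, 13.15 and 13.15 in Mfrp rd6 and 13.09 to 13.16 in WT. The share of the Pax6 signal that comes from RPE was not tested.

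Tbx3, a T-box repressor, and Nr2f2 (COUP-TFII), an orphan nuclear receptor of RPE, endothelium and mesenchyme, did not differ beyond the spread. Tbx3 read 6.11, 6.28 and 6.16 in Mfrp rd6, against 6.27, 6.05, 6.38 and 6.26 in WT, a difference of -0.06 (95% confidence interval -0.26 to 0.14). Its 3 Mfrp rd6 arrays lay within the WT range. Nr2f2 read 10.20, 10.06 and 10.23 in Mfrp rd6, against 10.03, 10.19, 10.16 and 10.18 in WT, a difference of 0.02 (95% confidence interval -0.14 to 0.19). Endothelial markers averaged 7.50 to 7.85 in the Mfrp rd6 arrays and 7.12 to 7.56 in the WT arrays, with 2 of 14 higher (1.34% of all genes) and 1 lower (0.813%). Among all 14 paralogues of the 9 factors 0 passed (median change 0.01). Tbx2, the T-box relative of Tbx3, had the smallest p, at 8.37, 8.54 and 8.81 in Mfrp rd6, against 8.18, 8.09, 8.15 and 8.36 in WT, a difference of 0.38 (adjusted p = 0.135). The remaining paralogues ranged from -0.25 (Crx) to 0.18 (Tbx5).

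**Figure D2:**
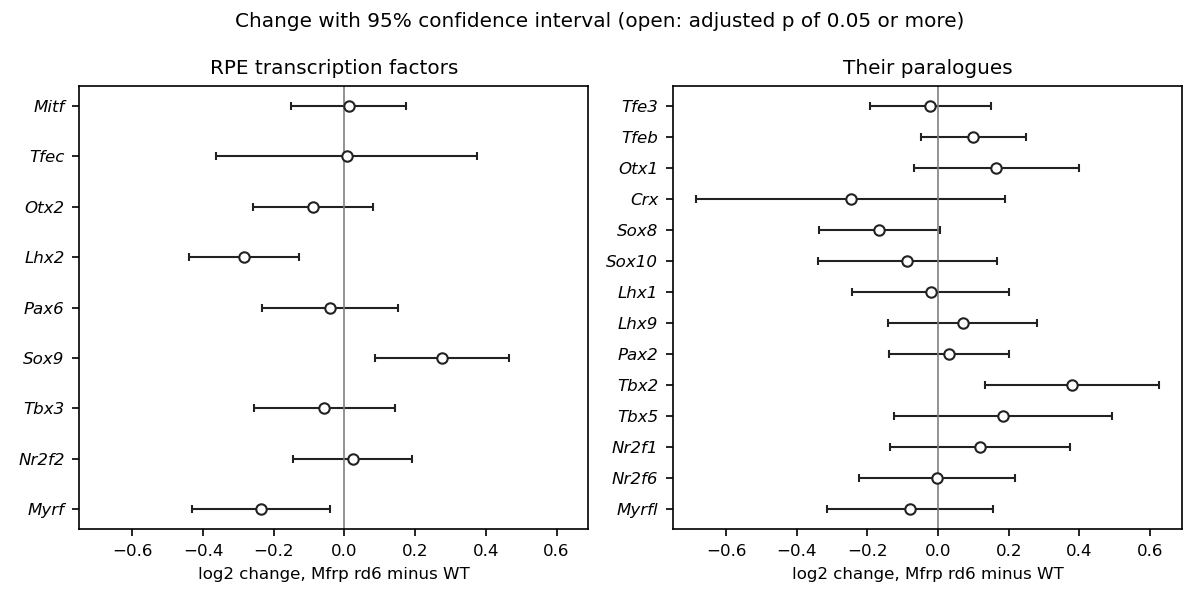
Log2 change, Mfrp rd6 minus WT, of the 9 transcription factors (left) and of their 14 paralogues (right), with 95% confidence intervals from limma. All points are open because no adjusted p was under 0.05, and the intervals of Lhx2, Sox9 and Myrf, and of the paralogue Tbx2, exclude 0.

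The order of the arrays differed between the factors. Within WT, replicate 3 held the highest value of 5 of the 9, and within Mfrp rd6, replicate 2 held the highest of 5 and replicate 3 the lowest of 5. Mfrp rd6 replicate 1, the sample that both label fields put at 12 weeks, lay between the other 2 for 6 of the 9. Leaving it out, so that ages match if the growth protocol holds, gave -0.30 for Lhx2 (adjusted p = 0.174), 0.30 for Sox9 (adjusted p = 0.249) and -0.23 for Myrf (adjusted p = 0.375). Without WT replicate 3 and Mfrp rd6 replicate 2 together, which stood apart in rod and muscle or lens markers, the values were -0.25 for Lhx2, 0.24 for Sox9 and -0.24 for Myrf (adjusted p of 0.369, 0.485 and 0.398).

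**Figure D3:**
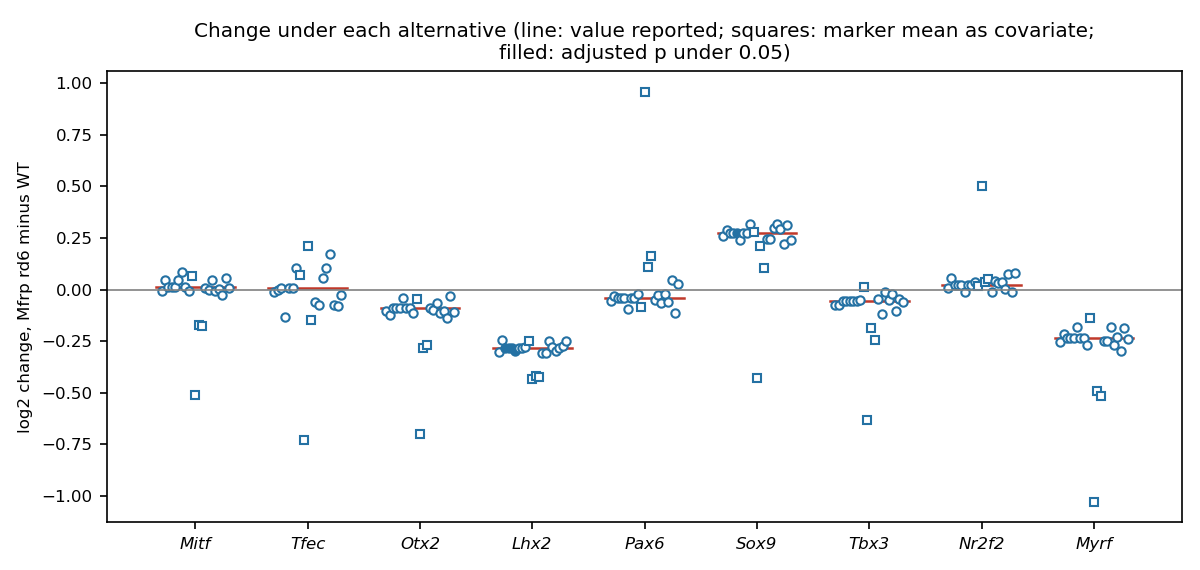
Log2 change, Mfrp rd6 minus WT, of each transcription factor under its 21 alternatives (20 for Tbx3 and 19 for Tfec, which filters on dim genes removed). Points are single alternatives, where squares are fits with a marker mean as covariate, filled points have an adjusted p under 0.05, and a line marks the reported value. Lhx2 and Myrf stay below 0 in every alternative shown, Sox9 is above 0 in all but the fit with the microglia and macrophage mean, and filled points occur for Lhx2 (4) and Sox9 (1).

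Pigment genes, the classical readout of Mitf and Otx2, were set beside the factors. Of 15 measured genes 2 rose and 0 fell in Mfrp rd6, with a median change of 0.07 beside -0.02 over all genes. The share of all genes called higher was 1.34%. Gpr143, a melanosomal receptor, read 9.27, 9.13 and 9.15 in Mfrp rd6, against 8.62, 8.71, 8.96 and 8.61 in WT, a rise of 0.46 (SE 0.10, limma adjusted p = 0.0438). Gpr143 passed in 10 of 21 alternatives, and its value was 0.11 with surface epithelium as marker covariate and 0.20 with skeletal muscle (adjusted p of 0.961 and 0.812). Neither marker mean overlapped between the groups, so these fits can hardly tell genotype from the markers. With single arrays left out Gpr143 passed only without WT replicate 3 (0.54, adjusted p = 0.0142). Gpnmb, a glycoprotein of melanosomes and macrophages, read 12.25, 12.23 and 12.20 in Mfrp rd6, against 11.88, 11.75, 11.87 and 11.82 in WT, a rise of 0.40 (SE 0.07, adjusted p = 0.015). Gpnmb passed in 11 of 21 alternatives. Its call was lost when WT replicate 4 (0.39), Mfrp rd6 replicate 1 (0.385) or Mfrp rd6 replicate 2 (0.395) was left out, with adjusted p of 0.0561, 0.0681 and 0.061. The macrophage markers were higher in the same arrays, as given above, and their part was not tested. The enzymes of melanin synthesis Tyr (0.14, adjusted p = 0.433), Tyrp1 (0.17, adjusted p = 0.356) and Dct (-0.0025, adjusted p = 0.992) did not pass. The melanosome carrier Slc45a2 had the lowest value of the list, at -0.47 (adjusted p = 0.126).

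Among visual cycle genes and Best1, known readouts of Sox9, Otx2 and Lhx2, 0 of 10 measured genes rose and 2 fell (0.813% of all genes were called lower), with a median change of -0.10. Rdh10, a retinol dehydrogenase, read 12.08, 12.24 and 11.94 in Mfrp rd6, against 12.64, 12.62, 12.72 and 12.51 in WT, and fell by 0.54 (SE 0.09, limma adjusted p = 0.0143). Lrat, which esterifies retinol, read 12.48, 12.54 and 12.36 in Mfrp rd6, against 12.78, 12.81, 12.92 and 12.92 in WT, and fell by 0.40 (adjusted p = 0.0277). In both genes the groups did not overlap. Rdh10 passed in 14 of 21 alternatives and lost its call when Mfrp rd6 replicate 1 was left out (-0.53, adjusted p = 0.0598). Lrat passed in 8 of 21. With single arrays left out it passed only without WT replicate 1 (-0.42, adjusted p = 0.0447), with values of -0.44 to -0.35 over all 7. Rpe65, the isomerase of the cycle, averaged 12.64 ± 0.16 in Mfrp rd6 (SD, n = 3) and 12.87 ± 0.05 in WT (SD, n = 4), a difference of -0.22 that did not pass (adjusted p = 0.24). Best1, a chloride channel whose promoter is a known site of Sox9, Otx2 and Mitf action, was dim on this array, at 5.73 to 5.95 in Mfrp rd6 and 5.75 to 6.02 in WT, and differed by -0.06 (adjusted p = 0.832).

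Wnt, BMP and Hippo signals are known to act on RPE fate in the embryo. Of 17 measured genes of these pathways 2 rose and 1 fell, where 1.34% of all genes were called higher and 0.813% lower, and the median change was 0.03. Id3 and Id2 are helix-loop-helix proteins without a DNA-binding domain that BMP signals induce. Id3 read 8.82, 8.78 and 9.05 in Mfrp rd6, against 8.35, 8.25, 8.33 and 8.42 in WT, a rise of 0.55 (SE 0.08, limma adjusted p = 0.0112). Id3 passed in 15 of 21 alternatives, among them all 7 fits without 1 array, and lost its call over all probe sets (adjusted p = 0.0527), without WT replicate 3 and Mfrp rd6 replicate 2 (0.595, adjusted p = 0.0594) and with each of the 4 marker means as covariate. Id2 read 12.14, 12.19 and 12.06 in Mfrp rd6, against 11.73, 11.73, 11.66 and 11.74 in WT, a rise of 0.415 (SE 0.07, adjusted p = 0.013). Id2 passed in 13 of 21 alternatives and lost its call when Mfrp rd6 replicate 1 (0.41) or 2 (0.385) was left out, with adjusted p of 0.0571 and 0.0599. Id1 was also higher in all Mfrp rd6 arrays, by 0.49, with an adjusted p of 0.0504. Tead1, the DNA-binding partner of Yap1, read 10.27, 10.15 and 10.12 in Mfrp rd6, against 10.59, 10.48, 10.65 and 10.53 in WT, and fell by 0.38 (SE 0.07, adjusted p = 0.0298). Tead1 passed in 8 of 21 alternatives, and with single arrays left out only without WT replicate 2 (-0.41, adjusted p = 0.0421). Bmp4 (-0.30, adjusted p = 0.0872) and Ctnnb1, the Wnt effector beta-catenin (-0.14, adjusted p = 0.311), did not pass. Once microglia and macrophage markers were a covariate, the values were 1.21 for Id3, 0.11 for Id2, -1.46 for Rdh10 and -0.97 for Lrat, and with the surface epithelium mean Tead1 was at -0.58. None of these 5 fits passed. Both marker means separated the groups completely, so such fits can hardly tell genotype from the markers.

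**Figure D4:**
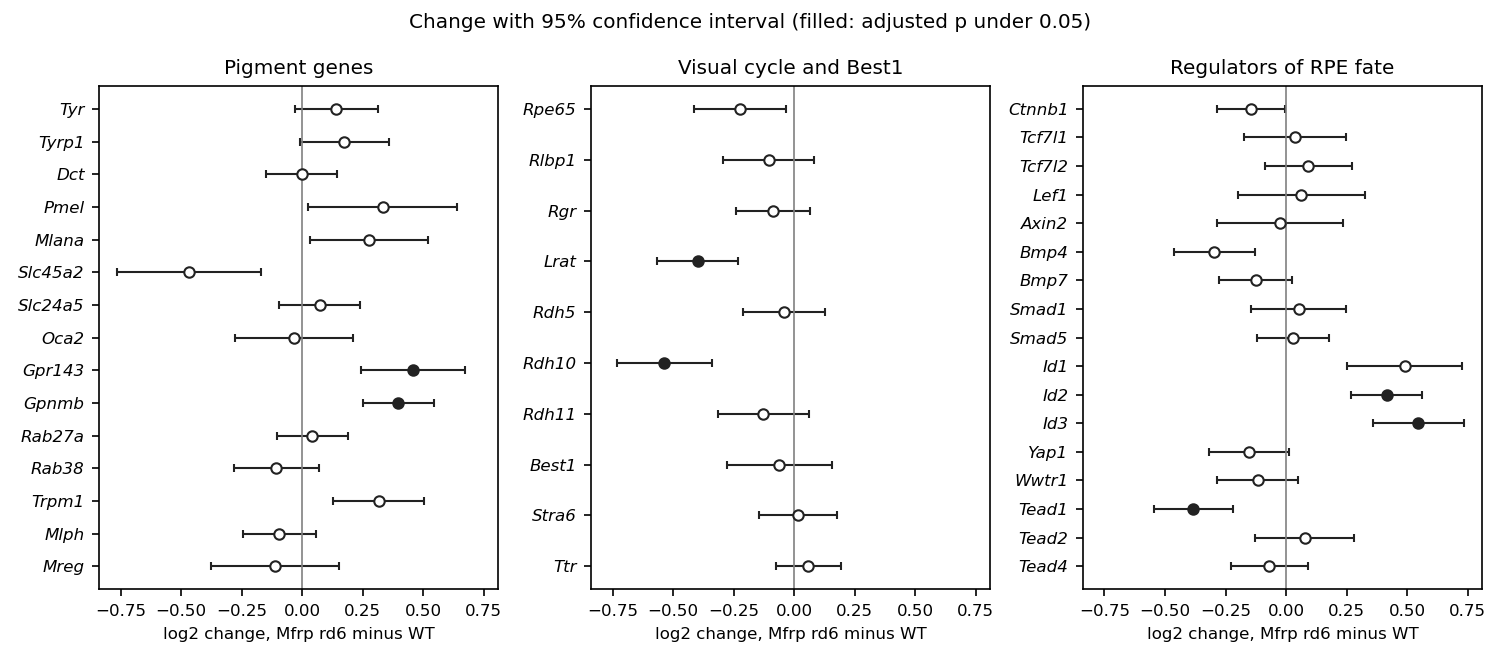
Log2 change, Mfrp rd6 minus WT, with 95% confidence intervals, of 15 pigment genes, 10 genes of the visual cycle with Best1, and 17 regulators of RPE fate. Filled points have an adjusted p under 0.05: Gpr143 and Gpnmb, Lrat and Rdh10, and Id2, Id3 and Tead1.

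Transcription factors of retinal progenitors and of the neural retina, which RPE factors keep off, showed no call. Of 24 measured genes 0 passed, and their median change was 0.0054. Rax, an eye field homeodomain factor, had the smallest p, at 7.50, 7.26 and 7.63 in Mfrp rd6, against 7.29, 6.94, 7.14 and 7.31 in WT, a difference of 0.29 (limma adjusted p = 0.257) with overlapping arrays. Six3 (0.105) and Six6 (0.08) differed by less than their intervals. The groups separated in 0 of the 24 genes, against 15.3% of all genes.

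**Figure D5:**
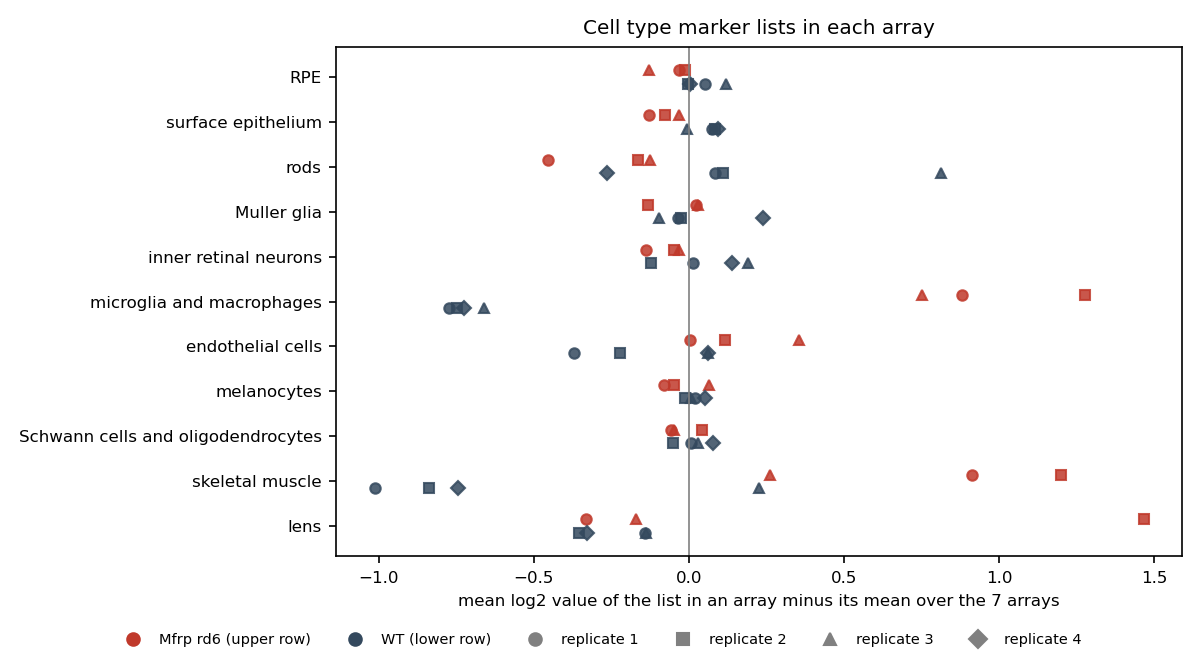
Mean log2 value of 11 cell type marker lists in each array, minus the list's mean over the 7 arrays, with Mfrp rd6 in the upper row and WT in the lower row of each list. The microglia and macrophage means (8.59 to 9.11 in Mfrp rd6, 7.07 to 7.18 in WT) are far apart, WT replicate 3 has the highest rod mean (8.61), and Mfrp rd6 replicate 2 has the highest lens mean (8.05).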

How the data were processed

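Each of 7 RNA samples was hybridised to 1 array. The authors deposited log2 values, 1 per probe set and array, made with Affymetrix Expression Console and RMA per the submitters' processing notes; the sources used here give no versions. Of 35556 probe sets, 21789 had 1 symbol in the platform annotation, 1621 several and 12146 none. Genes were named from those with 1 symbol, and the probe set with the highest mean was used, giving 19938 genes (21698 probe sets matched RefSeq of GRCm38.p6 by Entrez identifier, 0 symbols changed). Values lay between 1.91 and 13.81 and array medians between 6.52 and 6.58.

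Each gene was fitted with limma 3.58.1 in R 4.3.3 (lmFit, eBayes, 5 residual degrees of freedom) as Mfrp rd6 minus WT, with Benjamini-Hochberg adjustment over all genes, a threshold of 0.05 and 95% intervals. The number of arrays limits the precision, with a median SE of 0.09. The procedure was tested on simulated data. The members, gene lists and tests were chosen with earlier results of these data known. Named were the 9 factors, up to 4 members per list that passed, or else that with the smallest p, Rpe65, Tmem98, measured paralogues, and the 3 profiles nearest to the member with the smallest p; other names were chosen after their values were seen. Entries of the lists without a probe set of their own were not analysed here. Python 3.11.15 and pandas 2.3.3 made the tables. Alternatives were equal array medians, quantile normalization, array weights, robust moderation along a variance trend, filters on dim genes, other ways to treat probe sets, a block for replicate numbers, marker list means as covariates, and leaving out arrays. Of these 21, 3 were added after seeing the data: the surface epithelium mean or skeletal muscle mean as a covariate, and leaving out WT replicate 3 with Mfrp rd6 replicate 2.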

Additional observations from a re-analysis of the deposited data

Results flagged for a closer look

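In 4 of 45 named genes 1 WT array stood apart from the other 3 by more than Dixon's 95% limit, where chance flags about 1 in 20. Id2 read 11.66 in WT replicate 3, below the others. S100b, a Schwann cell marker, read 6.93 in WT replicate 4. Ttn, the giant muscle protein titin, read 6.91 in WT replicate 3, the array with the highest muscle mean in WT. Sart1, a splicing protein, read 9.0 in WT replicate 3. None of the 9 transcription factors had such an array in WT, and groups of 3 were not tested.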

How the results depend on the processing

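Of the 9 factors, 1 passed among genes with a mean of at least 6, 1 among genes above the median level and 1 with array weights (Lhx2, at -0.285, -0.285 and -0.30), and 2 with a variance trend and robust moderation (Lhx2 at -0.285 and Sox9 at 0.28). In the other alternatives 0 passed. With the filters fewer genes were tested, and the SE of Lhx2 was 0.064 and 0.061, beside 0.070 over all genes. The cause of these calls was not tested. Signs turned in some alternatives, among the 9 factors mostly where the difference was small. Mitf was -0.0042 with equal array medians, -0.17 with the surface epithelium mean or the skeletal muscle mean, -0.51 with the microglia and macrophage mean, and -0.025 to 0.055 without 1 array. Tfec was -0.0092 with equal array medians, -0.0024 with quantile normalization, -0.13 with array weights, -0.15 with the skeletal muscle mean, -0.73 with the microglia mean, -0.025 without WT replicate 3 and Mfrp rd6 replicate 2, and -0.08 to 0.175 without 1 array. Pax6 was 0.96 with the microglia mean, 0.11 with the surface epithelium mean, 0.16 with the skeletal muscle mean, 0.025 without WT replicate 3 and Mfrp rd6 replicate 2, and -0.1125 to 0.0475 without 1 array. Tbx3 was 0.014 with the rod mean. Nr2f2 was -0.013 with array weights and -0.013 to 0.075 without 1 array, and kept its sign, at 0.0817, without WT replicate 3 and Mfrp rd6 replicate 2. The microglia mean nearly coincides with genotype. The surface epithelium and skeletal muscle means also did not overlap between the groups, so fits with them can hardly tell genotype from the markers. With the microglia mean Sox9 was -0.43, Clu -0.0046, Erbb3 0.025, Atp2a1 -2.40, Pvalb -2.54, Myh4 -1.83 and Ttn -2.28. S100b was 0.019 with the surface epithelium mean. Tmem98 was 0.0125 with array weights, 0.0698 with the rod mean, 0.03 without WT replicate 3 and Mfrp rd6 replicate 2 and -0.0767 to 0.0433 without 1 array. Over all genes, 429 changed, against 718 with trend and robust moderation, 679 with array weights, 167 over all probe sets, 189, 0, 15 and 50 with the rod, microglia, surface epithelium and skeletal muscle mean, 193 without WT replicate 3 and Mfrp rd6 replicate 2, and 211 to 325 without 1 array. Nothing says that replicate numbers pair the samples, and same-numbered arrays did not deviate together (correlations of deviations -0.30, -0.07 and 0.04). With the replicate number as a block 226 genes changed and Mitf was -0.0067. For the 36 named genes outside the 9 factors, 552 of 750 values kept direction and call, 165 lost the call, 20 gained it and 13 turned sign.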

Other observations

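The genes whose profile over the 7 arrays was most like that of Lhx2, by the root mean square difference of centred log2 values, were Sart1 (0.04), Eif4g3, a translation initiation factor (0.04), and Mtmr4, a lipid phosphatase (0.04). Sart1 differed by -0.26, Eif4g3 by -0.28 and Mtmr4 by -0.25 between Mfrp rd6 and WT, with adjusted p of 0.0965, 0.0715 and 0.092, so none passed. These 3 were picked among all 19938 genes for their likeness.

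Within the RPE marker list 0 of 12 genes rose (1.34% of all genes) and 2 fell (0.813%). These were Lrat, given above with the visual cycle, and Slc6a13, a carrier of GABA and taurine, which fell by 0.62 (limma adjusted p = 0.0137). Slc6a13 read 11.37, 11.60 and 11.19 in Mfrp rd6, against 11.95, 11.97, 12.12 and 11.98 in WT. It passed in 14 of 21 alternatives, and not without Mfrp rd6 replicate 1 (-0.61, adjusted p = 0.0565).

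In the other marker lists, calls are read against 1.34% of all genes called higher and 0.813% lower. Of 10 measured cone genes 2 rose and 1 fell. Over the 10, 4 changes were positive and 6 negative, with a median of -0.05. Gnb3 rose by 2.61 and Cngb3 by 1.44, while Pde6c fell by 0.88 (adjusted p = 0.0187). Pde6c passed in 9 of 20 alternatives, of the fits without 1 array only without WT replicate 3 (-0.75) or 4 (-1.01). Of the microglia and macrophage genes, Ly86 rose by 3.41, Tyrobp by 3.18, C1qc by 3.11 and C1qb by 3.09. Of the endothelial genes Ramp2 fell by 1.60, while Plvap rose by 0.57 (adjusted p = 0.0459) and Tek by 0.55 (adjusted p = 0.0389). Plvap passed in 8 of 21 alternatives and Tek in 6 of 20, and of the 7 fits without 1 array both passed only without WT replicate 4 (0.65 and 0.62). In skeletal muscle 4 of 15 passed, Atp2a1 (2.21), Pvalb (2.18), Myh4 (1.84) and Ttn (1.40), with adjusted p of 0.0422, 0.0316, 0.0258 and 0.0417. Atp2a1, Pvalb and Myh4 each passed in 10 of 21 alternatives and Ttn in 7 of 20, and of the 7 fits without 1 array all 4 passed only without WT replicate 3 or Mfrp rd6 replicate 3. Over those 7 fits Atp2a1 ranged from 1.93 to 2.65, Pvalb from 1.89 to 2.55, Myh4 from 1.62 to 2.15 and Ttn from 1.16 to 1.75. Lists with 0 calls were rods (smallest p for Rom1, -0.48), Muller glia (Clu, 0.22), inner retinal neurons (Prkca, -0.26), melanocytes (Erbb3, -0.27), Schwann cells and oligodendrocytes (S100b, -0.23), surface epithelium (Pkp1, -0.26) and lens (Lim2, -0.23).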
